A study of Mus musculus with 23 samples.

Results

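An egg stores messenger RNA made during its growth, and most of that store is destroyed around fertilization and the first division, when the embryo begins to transcribe its own genome. The 27 genes described here had abundant mRNA in wild-type (WT) mouse 1-cell embryos and almost none in WT 2-cell embryos. They were chosen from 56196 genes by their level in CPM (a gene's reads out of each 1 M reads of its library). The mean over the 3 WT 1-cell libraries had to be at least 200 CPM, and the mean over the 3 WT 2-cell libraries at most 1/32 of it. Of 898 genes that reached the first threshold, 38 met both, and 11 of these were left out by a rule on symbols. That rule names zona pellucida, Nlrp, Obox and predicted genes among others, though Zp1, Zp2 and Zp3 were already below the level threshold. Of the members, 26 are annotated as protein-coding and 0610033M10Rik as a long intergenic noncoding RNA.

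The study compared WT mice with mice that carry 1 disrupted copy of Eif4enif1 (Eif4enif1+/-, called het below), which encodes 4E-T, a protein of messenger ribonucleoprotein particles that binds the cap-binding factor eIF4E. Germinal vesicle (GV) oocytes, the fully grown oocytes before meiosis resumes, were sequenced as total mRNA (transcriptome) and as ribosome-bound mRNA (translatome), with 2 libraries for each genotype and fraction. Embryos were sequenced as total mRNA with 3 libraries in each of 5 groups. These were WT 1-cell and het 1-cell embryos with no culture named, WT 2-cell and het 2-cell embryos after 24 h in culture, and het embryos that were still at 1 cell after the same 24 h, called arrested. The labels give no strain or age, do not say how many oocytes or embryos made a library, and leave unstated whether an embryo's genotype label refers to the embryo or to the mother. There was no WT arrested group. The labels do not tie libraries of a group to separate animals, so the p-values reflect how much these libraries vary, and part of that variation may be technical.

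Clearance of maternal mRNA works mainly through loss of the poly(A) tail. The CCR4-NOT deadenylase is brought to its targets by adaptors such as BTG4, which itself is translated only once meiosis resumes. Stored messages often carry a cytoplasmic polyadenylation element (CPE) in the 3′ untranslated region (UTR), bound by CPEB1, which keeps the tail short in the oocyte and lengthens it during maturation. The RNA here was selected by its poly(A) tail before or during reverse transcription, so loss of a message and loss of its tail cannot be told apart. A level in CPM is also a share of the library, so a message that stays while the rest of the RNA falls has a higher CPM.

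A CPE is shown for the 7 members that carry one within the last 100 bases of their longest annotated 3′ UTR, since elements near the end of the UTR are those known to act on the tail. Each line holds 30 bases of that UTR in RNA sense, written as DNA, 5′ to 3′, and the capitals mark the element (TTTTAT or TTTTAAT). Coordinates are on mm10 (GRCm38).
Sclt1, chr3:41626770-41626799, minus strand: ctcttaattcatTTTTATaattcttaagat
Dnajb4, chr3:152183955-152183984, minus strand: tgagtcctatagtctTTTTAATagaatgtg
D6Ertd527e, chr6:87112941-87112970, plus strand: tcctgtacatttTTTTATtattgtttgttt
Plat, chr8:22782745-22782774, plus strand: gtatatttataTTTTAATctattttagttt
Bcl2l10, chr9:75351580-75351609, plus strand: ccttaatacatTTTTAATaacttcaaattc
Nit2, chr16:57156675-57156704, minus strand: acttttaaaactTTTTATtaaaaattgttt
Dclre1a, chr19:56529196-56529225, minus strand: atgaaacaaaccTTTTATatgatatgtatt

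The element ended 8 bases from the annotated end of the UTR in Dnajb4 and 82 bases from it in Plat, which encodes tissue-type plasminogen activator and is the textbook example of a dormant oocyte message that is polyadenylated and translated at maturation. Among the printed members, Dnajb4 alone has no AATAAA or ATTAAA, the usual poly(A) signals, near that end. Its gene is annotated further, to 152178511, so the true end of its UTR is uncertain. A CPE anywhere in the longest annotated UTR was found in 14 of the 26 members that have one (53.8%), against 66.2% of 10183 genes at 1 CPM or more in WT 1-cell embryos and 79.1% of 786 genes at 200 CPM or more. The members' UTRs were shorter, with a median of 475.5 bases against 1169 and 1068 bases in those genes. Within the last 100 bases the share was 26.9%, against 20.6% and 29.4%. The AU-rich word TATTTAT was present in 6 members (23.1%, against 31.7% of the 10183 genes), ATTTA in 17 (65.4%, against 72.9%) and the Pumilio word (TGTA, any base, ATA) in 6 (23.1%, against 27.7%). Only the transcript strand was read, TATTTAT holds ATTTA within it, and a match to these letters is a description of the sequence. The 5 F-box genes Fbxw14, Fbxw20, Fbxw22, Fbxw25 and Fbxw28 have no CPE in their longest annotated UTR. In Fbxw20 and Fbxw25 that UTR is only 52 and 58 bases long, which leaves little room for the element. The 5 genes lie on the minus strand of chromosome 9 between 109217432 and 109664652, and 8 of the 27 members are found on that chromosome in all.

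Several libraries stood apart from their groups. Total counts ran from 5.60 to 40.4 M in embryos and from 3.62 to 50.5 M in GV oocytes. In het 1-cell libraries 1 and 3 the 100 most abundant genes held 6.34% and 5.53% of counts, against 32.1% to 38.0% in the other 1-cell libraries, and levels there spanned a narrower range, called compressed below. Arrested library 1 was low in transcripts known to rise at the 2-cell stage. Over a list of 16 such genes it had 314 CPM, but most of that was Tcstv1 at 189 CPM, which 1-cell libraries also held (147 to 183 CPM). Summed without Tcstv1 and Tcstv3, which left 14 genes and was decided after the values were seen, arrested library 1 had 58.9 CPM, against 3788 and 1848 CPM in arrested libraries 2 and 3, 2134 to 3613 CPM in 2-cell libraries and 45.3 to 242 CPM in 1-cell libraries. The genes of the sum differed. Zscan4f was at 5.80, 1465 and 733 CPM in arrested and at 152 to 1163 CPM in 2-cell libraries. Dppa4 was at 1.80, 162 and 53.1 CPM against 214 to 593 CPM, and Usp17lb at 2.21, 243 and 65.8 CPM against 307 to 422 CPM. Dppa2, which stayed in the sum, was at 29.5 CPM in arrested library 1 and at 34.4 to 177 CPM in 1-cell libraries. Eif4enif1 itself was at 57.5, 30.3 and 37.9 CPM in het 2-cell libraries and at 74.3, 60.9 and 80.2 CPM in WT 2-cell libraries. In arrested libraries it was at 69.6, 28.9 and 50.5 CPM, so library 1 lay within the WT 2-cell range and above every het 2-cell library. It was at 107, 128 and 159 CPM in WT 1-cell libraries and at 146, 58.1 and 149 CPM in het 1-cell libraries, where the compressed libraries 1 and 3 lay within the WT range. In GV oocytes it lay between 96.4 and 135 CPM in het and between 211 and 335 CPM in WT libraries.

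In WT embryos, the comparison that chose them, the 27 mRNAs together made up 5.11% to 5.42% of all reads at the 1-cell stage and 0.0780% to 0.143% at the 2-cell stage. The fall ran from 32.8-fold (Fbxw14) to 90.8-fold (Pabpn1l), with a median of 43.9-fold, and is a description with no test. Bcl2l10, an oocyte-rich member of the BCL2 family of apoptosis regulators, was the most abundant, at 13619, 8577 and 11542 CPM in 1-cell libraries and at 85.9, 181 and 227 CPM in 2-cell libraries. Per kilobase of exon it also led, at 9218 CPM per kb, ahead of Fbxw28 at 4105, Fbxw14 at 3559 and E330021D16Rik at 2383 CPM per kb. Itpr2, an inositol trisphosphate receptor that releases calcium from internal stores, was the lowest at 22.4 CPM per kb.

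Several of the abundant members come from gene families known from oocytes, and others have general roles. Fbxw28 (8008 ± 697 CPM, mean ± SD, n = 3, WT 1-cell), Fbxw14 (7523 ± 718 CPM), Fbxw22 and Fbxw20 belong to a mouse cluster of F-box and WD40 proteins, a class that presents substrates to ubiquitin ligases. Fbxw14 and Fbxw28 share 65.1% and 66% of their 50-base words with each other, so the counts of either may hold reads of the other. Oas1d and Oas1e are oocyte-expressed members of the mouse oligoadenylate synthetase 1 family, whose founding enzymes respond to double-stranded RNA, and 11.3% of the words of Oas1e occur in other genes. Oog4 is an oogenesin, a leucine-rich repeat protein of oocytes. The remaining abundant members were Pfdn4 (a subunit of the prefoldin chaperone), Dnajb4 (an HSP40 co-chaperone), Rgs2 (a brake on G-protein signalling), E330021D16Rik and D6Ertd527e.

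Members nearest to the thresholds show how sharp the choice was. Sclt1 (200 CPM in WT 1-cell), Pls1 (217 CPM) and 0610033M10Rik (226 CPM) were just inside the level threshold, and Erich5 (161 CPM), Lurap1l (159 CPM) and Diras2 (123 CPM) just outside it. Fbxw14 (32.8-fold), Pls1 (33.0-fold) and D6Ertd527e (33.3-fold) were just inside the ratio, and Dph6 (31.4-fold), Cept1 (30.2-fold) and Gnpda2 (28.6-fold) just outside.

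**Figure D1:**
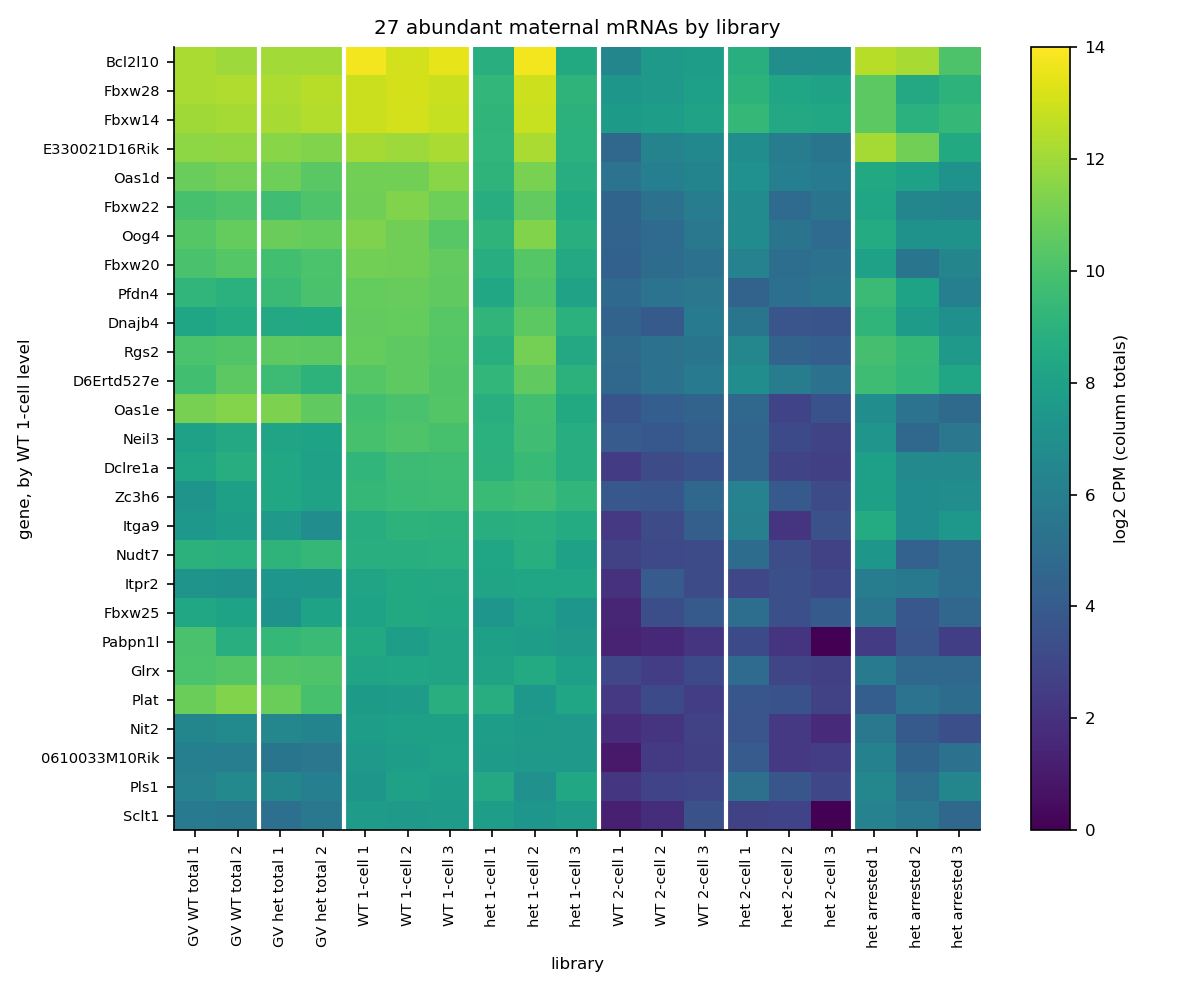
Level of each of the 27 mRNAs (rows, ordered by WT 1-cell mean) in each total-mRNA library (columns), as log2 CPM in colour. WT 1-cell libraries are bright and 2-cell libraries dark, the arrested libraries lie between them, and het 1-cell libraries 1 and 3 show a narrow range of 162 to 737 CPM.

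The clearance was also measured in het embryos, whose libraries did not enter the choice. Of the 27 mRNAs, 26 were lower in het 2-cell than in het 1-cell embryos, against 13.9% of all genes tested that were called lower (edgeR quasi-likelihood test, Benjamini-Hochberg adjusted p under 0.05 over 23656 genes). Log2 fold changes ran from -5.10 (Neil3) to -2.71 (Fbxw14), with a median of -4.03. Fbxw14 was the member not called (SE 1.09, adjusted p = 0.0628 by the same test), at 579, 7230 and 508 CPM in het 1-cell libraries and at 629, 351 and 327 CPM in het 2-cell libraries. The groups of Fbxw14 overlapped through the compressed libraries 1 and 3. Without those libraries, and with the lone het 1-cell library assumed to vary like the other groups, 27 were lower and the median was -5.16. Without het 1-cell library 2 instead, 18 were lower.

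Het 1-cell library 2, the uncompressed one, resembled WT 1-cell embryos in these mRNAs. Its level was 94.2% of the WT 1-cell mean at the median, from 62.1% (Plat) to 150% (Rgs2). It lay within the WT range for 8 members, below it for 13 and above it for 6. Over all 3 het libraries, 7 members were lower in every het than in every WT 1-cell library, against 1.4% of all genes tested. WT 1-cell levels chose the members as high, so these counts carry no test.

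By their means, het 2-cell embryos held slightly more of the set than WT 2-cell embryos, but only het library 1 lay above the WT range. The 27 mRNAs summed to 0.283%, 0.127% and 0.114% of reads in het 2-cell libraries. In WT 2-cell libraries they summed to 0.0780%, 0.110% and 0.143%, so het libraries 2 and 3 lay within the WT range. The mean was above that of WT for 21 members, with a median ratio of 1.5, from 0.759 (Dnajb4) to 2.91 (Pls1, an actin-bundling plastin), and Itga9, an integrin subunit, Fbxw25 and 0610033M10Rik followed Pls1 at 2.52, 2.08 and 2.03. In 24 of the 27 the highest value was that of het 2-cell library 1. Among 2-cell libraries it also had the highest sum of the 2-cell-stage genes, with Zscan4f at 1163 CPM. Its Dppa2 and Dppa4, at 181 and 214 CPM, were the lowest of the 2-cell libraries. The part of that library in the difference was not tested. Groups did not overlap for Fbxw28 and Fbxw14, both higher in het, against 3.12% of all genes tested, and no member was lower in every het library, against 12.9%. Fbxw28 and Fbxw14 share much of their sequence, so they may not be separate observations. Fbxw28 was at 527, 305 and 263 CPM in het and at 169, 184 and 238 CPM in WT 2-cell libraries. The WT 2-cell libraries chose the members as low, so this too is a description.

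Arrested embryos had the same genotype label and the same 24 h of culture as het 2-cell embryos, and neither group entered the choice of members. Of the 27 mRNAs, 14 were higher in arrested than in cleaved embryos, 0 were lower and 13 did not pass the test, against 3.85% of all genes tested that were higher and 4.55% that were lower (edgeR quasi-likelihood test, adjusted p under 0.05). All 27 log2 fold changes were above 0, from 0.88 to 5.30 with a median of 2.65, while the median of all genes tested was -0.01. Among the other 871 genes at 200 CPM or more in WT 1-cell embryos, 159 were higher (18.3%) and 16 lower, with a median of 1.13. In 17 members every arrested library lay above every het 2-cell library, against 7.49% of all genes tested.

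The difference was largest for E330021D16Rik, on chromosome 6 (136400317 to 136415569, minus strand). It had 4365, 2082 and 368 CPM in arrested libraries and 117, 61.4 and 43.4 CPM in het 2-cell libraries, with a log2 fold change of 5.30 (SE 1.29, edgeR adjusted p = 0.0237). The groups did not overlap, and arrested library 1 was at the WT 1-cell level. Rgs2 was at 933, 648 and 194 CPM in arrested against 90.8, 21.9 and 17.9 CPM in het 2-cell libraries, a log2 fold change of 4.13 (SE 1.03, edgeR adjusted p = 0.0261). Dnajb4 was at 582, 208 and 133 CPM against 44.0, 13.0 and 12.5 CPM, a change of 4.15 (SE 0.94, edgeR adjusted p = 0.0187). Neither gene's groups overlapped, and for both arrested library 1 was the highest and library 3 the lowest.

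Dclre1a, a nuclease of DNA crosslink repair, had the smallest adjusted p of the set. It lay at 244, 96.0 and 97.2 CPM in arrested and at 23.5, 7.31 and 6.37 CPM in het 2-cell libraries, with a log2 fold change of 3.95 (SE 0.73, edgeR adjusted p = 0.0115). The lowest arrested library was well above the highest het 2-cell library. Bcl2l10 changed about as much, by 4.36, but with more spread (SE 1.43, edgeR adjusted p = 0.0678). Its 5763, 4528 and 1108 CPM in arrested libraries were all above its 449, 123 and 126 CPM in het 2-cell libraries.

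The other members called higher were Pfdn4 at 3.78, Sclt1, a centriole appendage protein, at 3.59, Itga9 at 3.49, D6Ertd527e at 3.29, Neil3, a DNA glycosylase, at 3.0, and Zc3h6, a CCCH zinc-finger protein, at 2.70, all log2 fold changes. They continued with 0610033M10Rik at 2.67, Itpr2 at 2.65, Pls1 at 2.23 and Plat at 1.59. The smallest changes were those of Fbxw25 (0.88), Pabpn1l (0.97), Fbxw14 (1.32) and Fbxw28 (1.45), followed by Plat, and of these Plat alone was called. None of the 5 Fbxw genes was called, with a median of 1.45. For Fbxw28, the 1432, 346 and 529 CPM in arrested libraries overlapped the 527, 305 and 263 CPM of het 2-cell libraries.

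**Figure D2:**
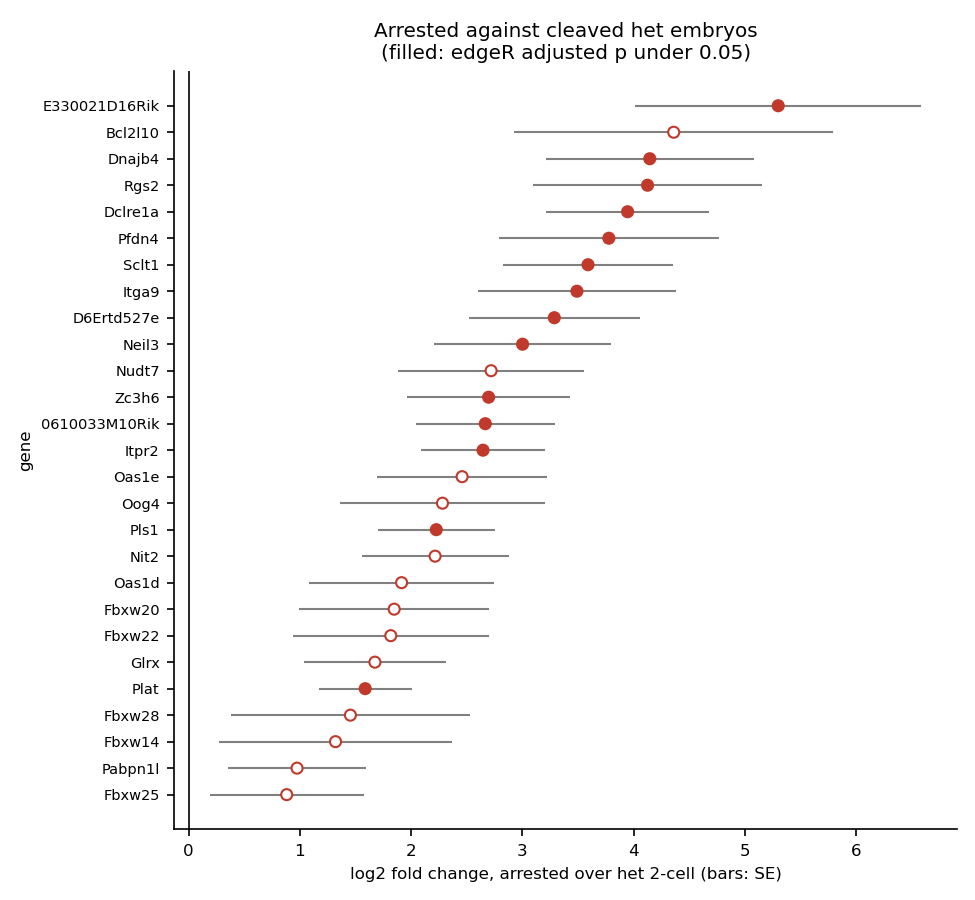
Log2 fold change of each mRNA in arrested over het 2-cell embryos (points) with its SE (bars), filled where edgeR's adjusted p is under 0.05. All 27 points lie above 0, from 0.88 to 5.30, and the 14 filled ones include Plat at 1.59.

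The count rested on particular libraries. Without arrested library 1, the one low in 2-cell-stage transcripts, 4 members were higher (Dclre1a at 2.98, Sclt1 at 2.82, Itpr2 at 2.11 and Plat at 1.66), against 1.36% of all genes tested, and the median was 1.66. By level, in a count added after the values were seen, arrested libraries 2 and 3 were both above every het 2-cell library in 17 members, against 13.6% of all genes tested. Without het 2-cell library 2 or without library 3 the count was 0, and 2 and 0 of all genes were then higher. The fit with these 2 groups alone called 0 members and 0 of all genes, with a median of 2.62. In the full fit 22 members had an unadjusted p under 0.05, against 6523 of all 23656 genes tested. DESeq2 called 16 members, and 8.94% of all genes it tested were higher.

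**Figure D3:**
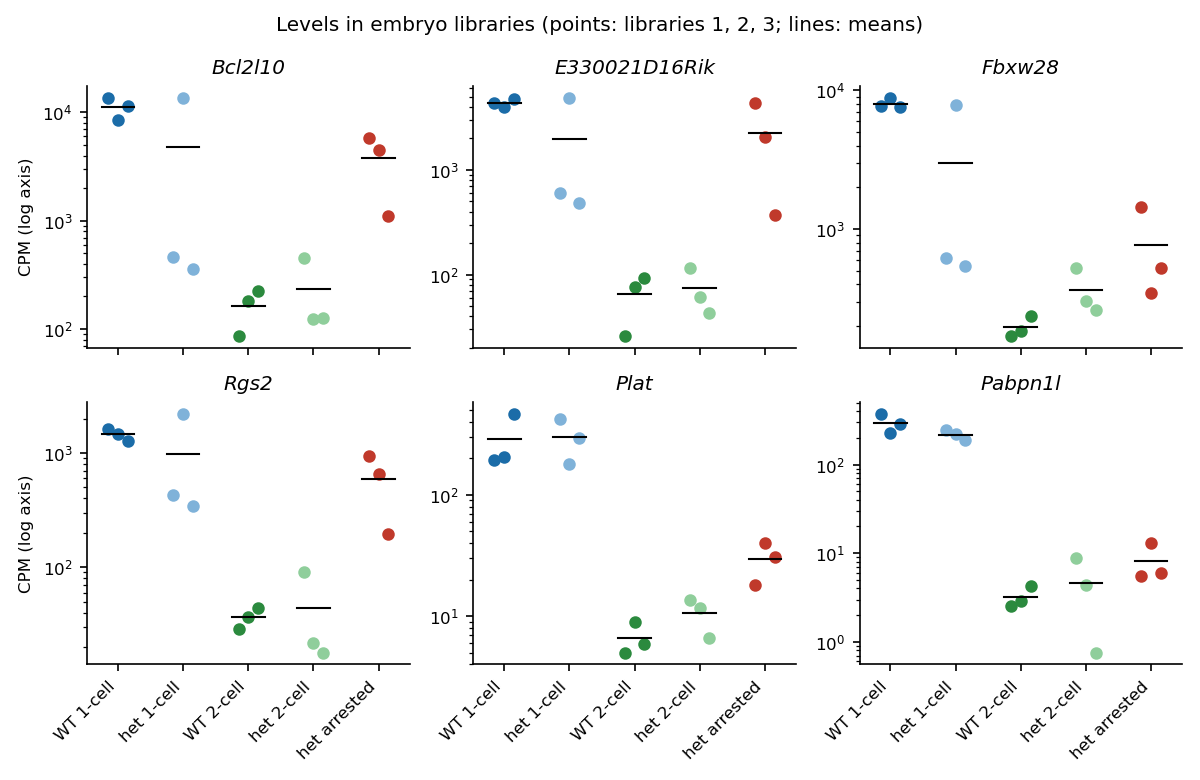
CPM of 6 members (log axes) in the 15 embryo libraries, as points for libraries 1, 2 and 3 from left to right and lines for group means. Arrested libraries lie above het 2-cell libraries for Bcl2l10, E330021D16Rik, Rgs2 and Plat, and overlap them for Fbxw28 and Pabpn1l.

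Although higher than in 2-cell embryos, most of the set was well below the 1-cell level in arrested embryos. As a percentage of the WT 1-cell mean, the arrested mean was 14.7% at the median, against 2.99% in het and 2.28% in WT 2-cell embryos. E330021D16Rik was highest (52.0%), followed by Itga9 (46.2%), D6Ertd527e (44.2%), Rgs2 (40.6%), Bcl2l10 (33.8%) and Pls1 (32.4%). Pabpn1l, whose product binds poly(A) and works with BTG4 in maternal mRNA decay in mouse, was lowest (2.78%), followed by Oas1e (6.05%), Fbxw20 (6.85%) and Fbxw22 (7.17%). By library the medians were 19.9%, 11% and 8.65%, and arrested library 1 was the highest for 25 members. Plat and Pabpn1l were the exceptions, both highest in arrested library 2. In 26 members every arrested library was below every WT 1-cell library, against 17.7% of all genes tested, and the exception was E330021D16Rik. In 26 members every arrested library was above every WT 2-cell library, against 12.1%, and the exception was Fbxw25. WT levels chose the members as high in 1-cell and low in 2-cell embryos, so both counts and the percentages are descriptions with no test.

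**Figure D4:**
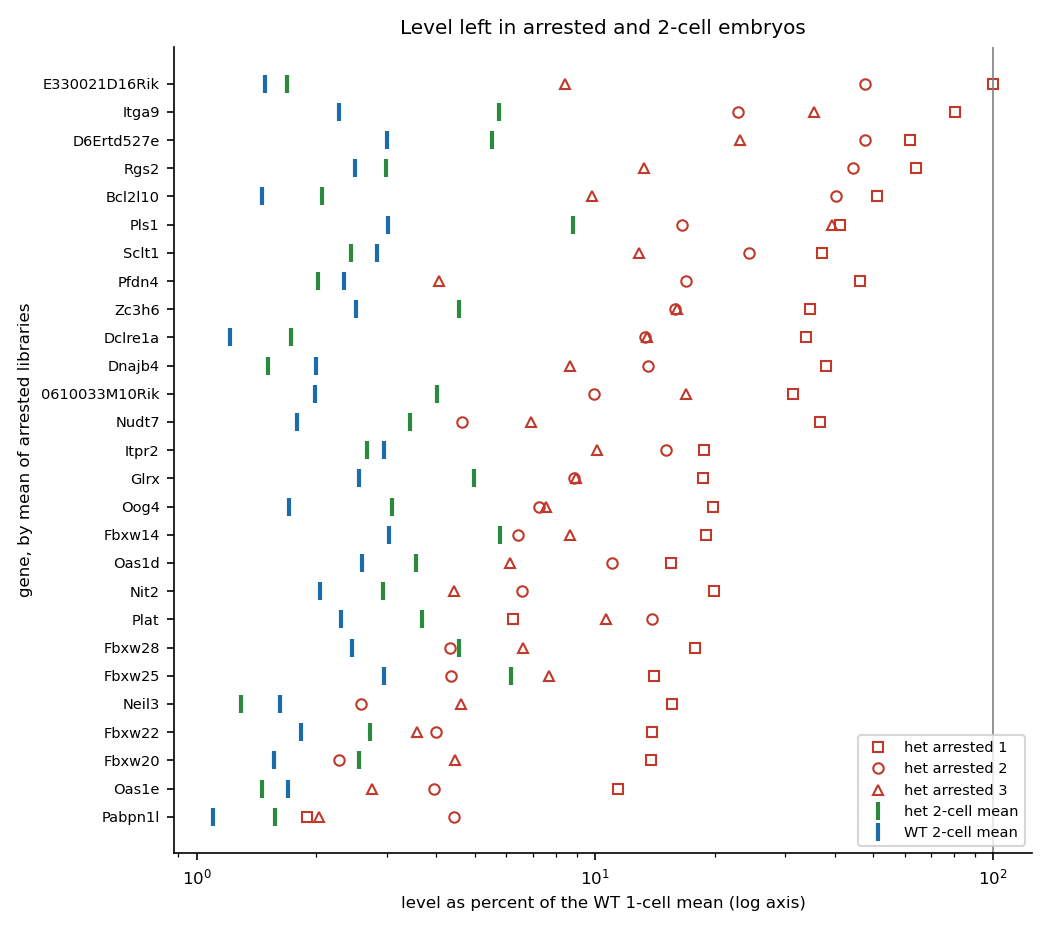
Level of each mRNA as a percentage of its WT 1-cell mean (log axis) in the 3 arrested libraries (red symbols) and in the het and WT 2-cell means (ticks). The arrested means run from 2.78% for Pabpn1l to 52.0% for E330021D16Rik, and the squares of library 1 lie farthest right for 25 genes.

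Against het 1-cell embryos, 6 members were lower in arrested embryos and 0 higher, against 3.91% of all genes tested that were lower and 9.97% that were higher (edgeR quasi-likelihood test). These were Pabpn1l (log2 fold change -4.02, SE 0.68, adjusted p = 0.00286), Oas1e at -2.44, Plat at -2.41, Glrx, a glutaredoxin, at -2.27, Nit2, an omega-amidase, at -2.07 and Itpr2 at -1.79. Pabpn1l was at 5.56, 13.0 and 5.98 CPM in arrested libraries and at 244, 219 and 187 CPM in het 1-cell libraries, and the groups were far apart in every library. Plat was at 17.9, 40.0 and 30.6 CPM and at 421, 178 and 297 CPM, also without overlap. The median over members was -1.39. Without the compressed het 1-cell libraries 1 and 3 it was -2.74, and Pabpn1l (-4.98, adjusted p = 0.0248 by the same test) and Plat (-2.84, adjusted p = 0.0461) were the 2 members called lower. The count was 3 without het 1-cell library 1 and 2 without library 2, which also gave 3 members higher. It was 13, 2 and 2 without arrested library 1, 2 and 3. With column totals in place of TMM scaling the median of all genes in this comparison went from 0.28 to -0.72, 34.1% rather than 71.8% of called genes were higher, and 18 members were lower.

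The CPE split the members as follows, by the longest annotated UTR. Of the 14 with the element, 11 were higher than in het 2-cell embryos, with a median log2 fold change of 3.39 and a median level of 22.4% of WT 1-cell. Of the 12 without it, 2 were higher (E330021D16Rik and Neil3), with a median of 1.83 and a level of 9.15%. The levels overlapped, from 10.3% to 46.2% with the element and from 2.78% to 52.0% without it. By the UTR of the longest coding transcript, 10 of 12 members with the element and 3 of 14 without it were higher, with medians of 3.54 and 1.88. The split also follows UTR length, with medians of 862.5 and 317.5 bases. It follows the gene family as well, since the 5 Fbxw genes all lack the element in their annotated UTRs. For the 7 members whose sites are printed above, 5 were higher, Bcl2l10 and Nit2 (2.22, adjusted p = 0.0502) missing the threshold. Over all genes tested 3.85% were higher, and over the other 871 genes at 200 CPM or more in WT 1-cell embryos 18.3%. Those genes were not split by the element, so no background for the split is at hand. The grouping was made after the values were seen and has no test.

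The machinery of clearance was read from a list of 47 decay factors. In arrested against het 2-cell embryos 7 were higher and 2 lower, with a median of 0.56 (edgeR quasi-likelihood test). Of all genes tested 3.85% were higher and 4.55% lower, so the 2 lower of 47 are near that share. Among the other 871 genes at 200 CPM or more in WT 1-cell embryos 18.3% were higher, so the 7 higher do not exceed that share. Not all 47 factors reach that level. Without het 2-cell library 2 or 3, 2 and 0 of all genes tested were higher, and 0 with these 2 groups alone. Dazl, a germ-cell regulator of translation, was at 822, 529 and 294 CPM in arrested and at 133, 69.5 and 49.9 CPM in het 2-cell libraries, a log2 fold change of 3.01. Cnot6l, a catalytic subunit of CCR4-NOT with a known part in maternal mRNA decay in mouse, was at 254, 115 and 158 CPM against 64.3, 22.4 and 33.9 CPM, a change of 2.47. Neither gene's groups overlapped. Btg4 was at 10891, 5061 and 8436 CPM in arrested and at 3811, 469 and 483 CPM in het 2-cell libraries. Its log2 fold change of 2.77 was not called (edgeR adjusted p = 0.165), though its groups did not overlap. In WT 1-cell libraries it was at 7286, 5361 and 5936 CPM. Pan2, another deadenylase, and the decapping factors Dcp1a and Dcp2 were also higher, with log2 fold changes of 1.75, 1.58 and 1.5, as was Lsm14b, a protein of messenger ribonucleoprotein particles, at 1.27. Ythdf3 and Ythdf2, both readers of methylated mRNA, were called in opposite directions, and Ythdf1 was not called (-0.99). Ythdf3 was higher at 1.67 (adjusted p = 0.0469 by the same test), at 151, 153 and 229 CPM in arrested and at 143, 23.3 and 39.7 CPM in het 2-cell libraries. Ythdf2, which promotes decay of its targets, was lower, with a log2 fold change of -1.54, at 32.8, 117 and 83.8 CPM in arrested and at 156, 201 and 341 CPM in het 2-cell libraries. Pabpc1, a cytoplasmic poly(A)-binding protein, was the other factor called lower.

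Markers of stage and of other cells were read beside these results. Of the 16 2-cell-stage genes, 1 was lower in arrested than in het 2-cell embryos (Tdpoz3, at most 0.0522 CPM in arrested and 1.69 to 4.42 CPM in het 2-cell libraries), with a median of -0.87. Of 14 oocyte genes 0 were called, with a median of 0.32. For granulosa and cumulus cells 1 of 16 tested genes was higher (Cyp19a1), with sums of 42.7, 278 and 69.5 CPM in arrested and 118 to 121 CPM in het 2-cell libraries. For sperm 1 of 4 was higher (Akap4), with sums of 0.941 to 9.97 CPM over both groups. For blood 0 of 4 were called, with sums of 4.73, 421 and 175 CPM in arrested and 197 to 284 CPM in het 2-cell libraries, almost all of it the alpha-globin pair. Each gene of that pair was at 0 to 4.47 CPM in 1-cell libraries and at 91.4 to 304 CPM in 2-cell libraries, so its level differed by embryo stage. The called genes Cyp19a1 and Akap4 were present in every 1-cell library, at 39.4 to 119 and 2.58 to 10.9 CPM. The part of the marker transcripts in the results was not tested.

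In GV oocytes, before any of these mRNAs is cleared, the set made up 3.30% to 4.93% of reads in the 8 libraries. No member was called between het and WT oocytes in ribosome-bound mRNA, against 4.61% of all genes tested (edgeR quasi-likelihood test over 22409 genes, 2 libraries a group). For a set of 27, 0 is near that share and does not show that levels were equal. An unadjusted p under 0.05 was reached by 3 members and by 4781 of all genes. The median log2 fold change was 0.01, from -1.01 to 0.43. In total mRNA 0 were called as well, against 2.55%, with a median of -0.25, from -0.98 to 0.58. There 3 members had an unadjusted p under 0.05, against 4390 of all genes. For the difference of the 2 changes 0 were called, against 0.0134%, with values from -0.82 to 0.73. At an unadjusted p under 0.05 there were 0 members, against 1999 of all genes. DESeq2 called 2, 1 and 0 members in the 3 tests. Over all genes it called 1027 higher and 833 lower of 19454, 775 and 648 of 17990, and 14 and 98 of 15795.

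The member closest to a call in both fractions was D6Ertd527e. Its ribosome-bound level was 947 and 1472 CPM in the het libraries, below the 2326 and 2404 CPM of the WT libraries, a log2 fold change of -1.01 (SE 0.32, edgeR adjusted p = 0.0874, DESeq2 adjusted p = 0.0178). Its total level was 763 and 533 CPM in the het libraries, below the 871 and 1420 CPM of the WT libraries, a change of -0.98 (SE 0.32, edgeR adjusted p = 0.114, DESeq2 adjusted p = 0.0470). Groups did not overlap in either fraction. Ribosome-bound E330021D16Rik was at 1860 and 2904 CPM in the het libraries and at 4039 and 4066 CPM in the WT libraries, a change of -0.81 (SE 0.28, edgeR adjusted p = 0.115). Ribosome-bound Plat was at 1297 and 2221 CPM in the het libraries and at 3335 and 2832 CPM in the WT libraries, a change of -0.84 (SE 0.34, edgeR adjusted p = 0.173). Both genes' libraries were separate by genotype, and neither was called. With 2 libraries a group such separation arises easily, also for D6Ertd527e. Its share over all genes was not counted, so it is a description only. Granulosa and cumulus genes moved with genotype, with sums of 686 and 1194 CPM in the het translatomes and of 235 and 378 CPM in the WT translatomes. In the transcriptomes het sums were 513 and 363 CPM, and WT sums were 122 and 211 CPM. Their part in these values was not tested.

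Within WT oocytes, the ratio of ribosome-bound to total level ranged widely between members, with a median log2 of -0.06. D6Ertd527e was higher in the translatome (1.06, SE 0.32, edgeR adjusted p = 0.0424), the only member called of 27, against 14.6% of all genes tested. Of the members 7 had an unadjusted p under 0.05, against 7024 of all 22409 genes. Pls1 (0.96) and Oas1e (0.83) were next, and Pls1 was called when the 2 fractions of a specimen were paired (0.94, edgeR adjusted p = 0.0198). The lowest were Pabpn1l (-0.96), Rgs2 (-0.78) and Nudt7, a peroxisomal coenzyme A hydrolase (-0.67), none of them called. In het oocytes 0 were called, against 8.09%, with 10 members and 5801 of all 22409 genes at an unadjusted p under 0.05. Pairing the specimens gave 2 members higher and 1 lower there, against 1723 and 650 of all 22409 genes.

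**Figure D5:**
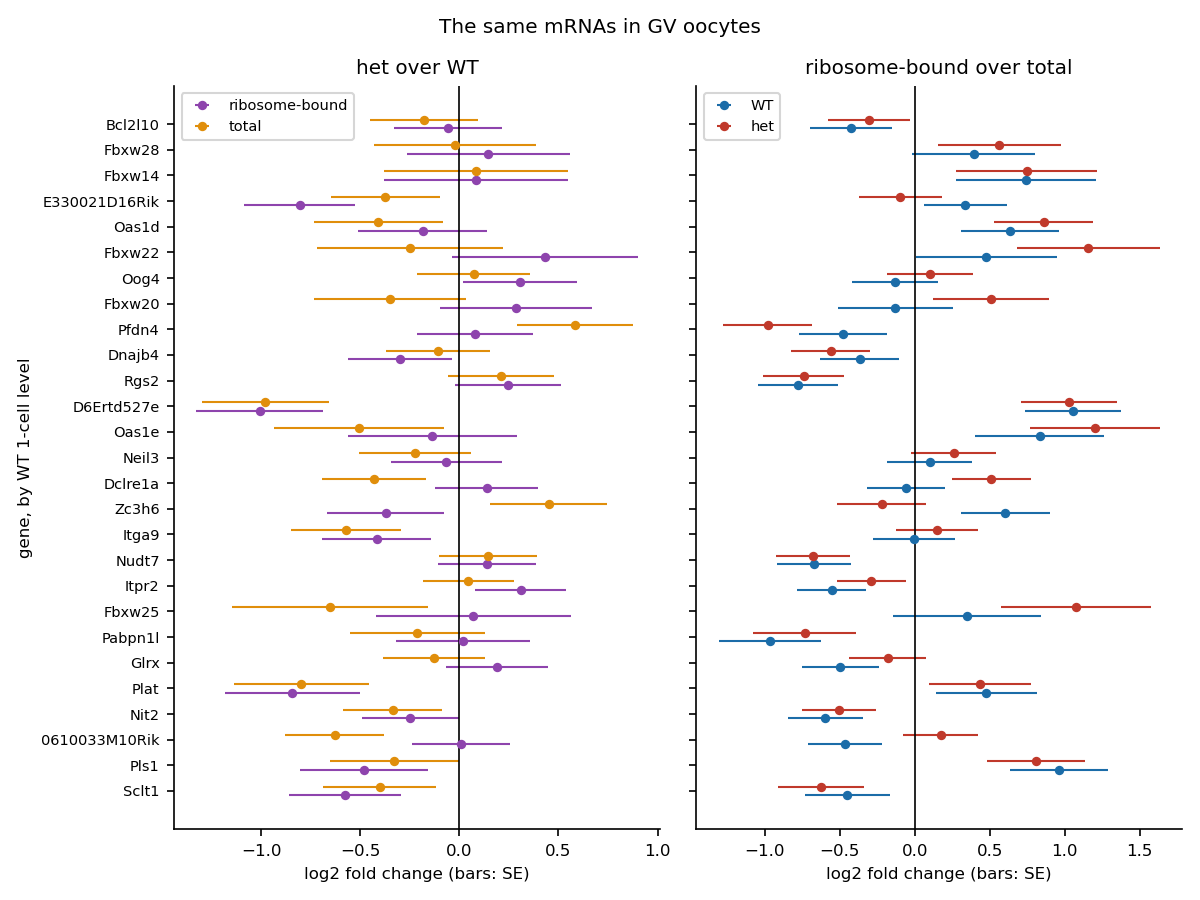
Log2 fold change with SE (bars) of each mRNA in GV oocytes, for het over WT in both fractions (left) and for ribosome-bound over total in both genotypes (right). D6Ertd527e lies lowest on the left at -1.01 and -0.98 and highest of the WT points on the right at 1.06.

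The share of these messages in the library also differed between oocyte and 1-cell embryo, from 2 tables set side by side without a test. Dnajb4 had 317 and 385 CPM in WT GV transcriptomes and 1598, 1680 and 1309 CPM in WT 1-cell libraries, a ratio of 4.35, and Sclt1 had a ratio of 3.97. Plat went the other way, from 1839 and 2584 CPM to 195, 205 and 461 CPM, a ratio of 0.130. Pabpn1l, Oas1e and Glrx were also lower at the 1-cell stage, at 0.403, 0.412 and 0.258 of the oocyte level. In 22 of the 27 the ratio was above 1. WT 1-cell levels chose the members as high, which favours ratios above 1, so this count is a description only.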

How the data were processed

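The authors deposited raw read counts per gene, 1 table each for oocytes (8 libraries) and embryos (15 libraries). The mm10 build, featureCounts 1.6.5, HISAT2 2.1.0 and Trim Galore 0.6.4 are named per the submitters' processing notes. Per the labels' protocols, cDNA was amplified with a single-cell full-length kit, and ribosome-bound mRNA was captured with RiboLace. No molecular identifiers or strand step are named, and the sources used here do not give the annotation, the strand setting or what was done with multiply mapped reads. Reads of close copies can therefore be split or lost.

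Levels are CPM by column total, as the rule for members asks. Counts were tested with edgeR 4.0.16 in R 4.3.3 (filterByExpr, TMM, quasi-likelihood F test, no replicate term, Benjamini-Hochberg over all genes tested), with 1 model for the 5 embryo groups and 1 for the 4 GV groups. SEs come from the F statistic. DESeq2 1.42.0, other scalings, no filter, the compared groups alone, replicate blocks and left-out libraries were alternatives. The fit was tested on simulated data. The sample descriptions pair both fractions of each GV specimen, whose deviations from group means correlated at 0.282 in het and 0.00348 in WT oocytes.

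Sequences and coordinates are from GENCODE transcripts on GRCm38, matched by gene identifier (26 members with version, 27 without). The 6 gene lists hold oocyte, 2-cell-stage, granulosa and cumulus, sperm and blood genes and decay factors. The members and lists were chosen with earlier results of these data known. Named genes are the 12 most abundant members, those with the 5 highest and 5 lowest changes in arrested against het 2-cell embryos, the 4 highest het to WT 2-cell ratios, the extremes in GV oocytes, those nearest each threshold and called list genes. The other members are named after their values were seen, so that each is accounted for. Btg4, a list gene that was not called, was likewise named after its values were seen.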

Additional observations from a re-analysis of the deposited data

How the results depend on the processing

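Of the member results recomputed (not every member in every comparison), 5 changed direction in 1 alternative each, and counts of calls moved more. For arrested against het 2-cell embryos the 14 members became 11 to 17 under other scalings, no filter, DESeq2, a replicate block (11) or without het 1-cell libraries 1 and 3, became 0 with the compared groups alone, and ranged from 0 to 17 with 1 library left out. With 1 library left out, Fbxw25 ranged from -0.0051 (without arrested library 1) to 1.32. The 6 members lower in arrested than in het 1-cell embryos became 3 with RLE scaling, 18 with column totals, 0 with the compared groups alone, 3 with a replicate block and 2 without het 1-cell libraries 1 and 3, and ranged from 2 to 13 with 1 library left out, with 0 to 3 higher. Its median (-1.39) was -2.74 without het 1-cell libraries 1 and 3 and ranged from -2.29 to -0.17 with 1 library left out, and that of arrested against het 2-cell from 1.66 to 2.98. In het 2-cell against het 1-cell embryos with 1 library left out, Bcl2l10 ranged from -5.23 to 0.30, Fbxw28 from -3.58 to 0.51 and Fbxw14 from -3.21 to 0.86, the highest each without het 1-cell library 2. The cause was not tested.

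Members higher in WT translatomes than transcriptomes numbered 2 with RLE scaling, 3 with no filter, 2 with DESeq2, 0 with the compared groups alone, 0 with a replicate block, 2 with a replicate block by specimen and 0 to 4 with 1 library left out. Lower ones numbered 2 with no filter, 1 with DESeq2 and 0 to 1 with 1 library left out. Oas1e ranged from -0.049 (without WT translatome library 2) to 1.37. In het oocytes higher ones numbered 6 with no filter, 3 with DESeq2, 2 with the compared groups alone, 2 with the block by specimen and 0 to 1 with 1 library left out, and lower ones 1, 3, 0, 1 and 0 to 1. For het against WT oocytes, 1 member was lower in each fraction with no filter, and DESeq2 gave 2 in the translatome and 1 in the transcriptome. Same-numbered embryo libraries did not deviate together (correlations from -0.570 to 0.337), so the block rests on a number only.

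The rule gave 35 genes with TMM-scaled CPM (27 of them members), 73 at 1/16, 4 at 1/64, 33 at 100 CPM and 21 to 34 with 1 library left out. Members higher in every het than in every WT 2-cell library numbered 5 with TMM or RLE scaling and 2 to 7 with 1 library left out. Members lower in every het than in every WT 1-cell library numbered 12 with TMM, 11 with RLE, 13 without het 1-cell libraries 1 and 3, and 7 to 18 with 1 library left out.

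With 2 or 3 libraries a group, amplified cDNA and no molecular identifiers, small changes of these mRNAs were not detectable. Low values such as that of Pabpn1l in 2-cell libraries rest on few reads.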
